A study of Penicillium oxalicum with 18 samples.

Results

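Glucoamylase amy15A (PDE_01201) and amyR (PDE_03964), its activator, are 2 of the 9261 gene identifiers in an expression table of the filamentous fungus Penicillium oxalicum, and they were taken by their locus tags. The table does not pair tags with names, so both names are recalled from publications on strain 114-2. Wild-type strain 114-2 and a nag3 deletion strain were grown for 24 h at 30 °C with 2% glucose, and the mycelium was then kept for 24 h on 1% bran with 1% microcrystalline cellulose (bran-cellulose here), on 2% glucose or on 2% N-acetylglucosamine (GlcNAc, from which chitin is built). GlcNAc is given by the sample labels alone, the other media also by the growth protocol. The 6 groups hold 3 libraries each, 18 in all, and all share the glucose pre-culture. Whether the replicates were separate cultures, and whether the deletion is 1 clone, is not given in the sources used here, so the p-values speak to the variation among these samples and possibly to technical variation alone.

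Glucoamylases are secreted enzymes that release glucose from the ends of starch chains. AmyR is a zinc cluster transcription factor, best known from Aspergillus, where maltose and isomaltose lead to its activity on the genes of α-amylase, glucoamylase and α-glucosidase. In P. oxalicum it has also been described as acting against cellulase genes. Bran usually retains some starch next to its cell walls, whereas pure glucose is the classical repressing sugar of such genes. The comparisons ask where both transcripts stand on each medium, how the deletion changes them, and whether target and regulator move together.

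Levels are in FPKM, fragments counted per unit of gene length and of library size. The 18 columns summed to between 920824 and 1083828 FPKM and listed 854 to 955 identifiers at 0. Replicates of a group correlated across genes at 0.952 to 0.986 on the log2 scale. The depth in reads is unknown, so no counting error can be given. The table does not name nag3, so the deleted gene could not be checked by name.

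amy15A was highest on bran-cellulose in both genotypes. All levels are relative to the RNA of whole mycelium, in which fewer cells with a transcript and less of it per cell cannot be told apart. In the wild type its 3 libraries stood at 396.2, 428.7 and 344.0 FPKM on bran-cellulose, a mean of 389.6 ± 42.7 (SD, n = 3). The deletion strain had 323.6, 366.0 and 380.9 FPKM there, a mean of 356.8 ± 29.7 (SD, n = 3). These 2 groups overlapped, and in every one of the 6 libraries amy15A lay at or above the 94.2 percentile of the genes tested.

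On glucose amy15A was lower, and the genotypes did not overlap. The wild-type libraries held 98.5, 111.0 and 199.6 FPKM, a mean of 136.3 ± 55.2 (SD, n = 3). One wild-type library, replicate 3, thus stood well above the other two, and only 10.9% of the genes tested had as large an SD of log2(FPKM + 1) in this group. In the deletion the 3 libraries held 74.0, 73.7 and 58.2 FPKM, a mean of 68.6 ± 9.03 (SD, n = 3).

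The genotypes lay farthest apart on GlcNAc for amy15A. All 3 wild-type libraries lay close together, at 47.0, 47.2 and 48.3 FPKM (47.5 ± 0.679, SD, n = 3), the lowest level of amy15A in the series. In the deletion they held 238.8, 147.7 and 155.5 FPKM (180.7 ± 50.5, SD, n = 3), so that its lowest library was above every wild-type library. By rank within a library, a measure that no scaling between libraries touches, amy15A stood between the 67.9 and 68.5 percentiles in the wild type and between the 87.0 and 92.3 percentiles in the deletion.

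amyR followed another order. It was highest in the wild type on glucose, where its libraries held 201.8, 237.4 and 229.0 FPKM (222.7 ± 18.6, SD, n = 3). On bran-cellulose the wild type held 166.9, 181.6 and 153.0 FPKM (167.2 ± 14.3, SD, n = 3). The deletion held 151.0, 143.6 and 159.3 FPKM there (151.3 ± 7.87, SD, n = 3), which overlapped the wild type. These 9 libraries all lay at or above the 86.8 percentile of the genes tested.

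In the deletion on glucose amyR was lower and more scattered, at 81.4, 146.3 and 69.8 FPKM (99.2 ± 41.2, SD, n = 3). Replicate 2 of this group was high, and its FPKM sum of 920824 was the lowest of the 18 libraries; the part of the library in the value was not tested. Only 9.61% of genes had as large an SD of log2(FPKM + 1) in this group.

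On GlcNAc amyR was a low transcript in both strains. Wild-type libraries held 20.9, 22.4 and 22.3 FPKM (21.9 ± 0.818, SD, n = 3). Deletion libraries held 12.3, 9.28 and 8.93 FPKM (10.2 ± 1.88, SD, n = 3), below all wild-type libraries. The mean percentile among genes tested was 46.6 in the wild type and 25.9 in the deletion, whereas it was 91.4 in the wild type on glucose.

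**Figure D1:**
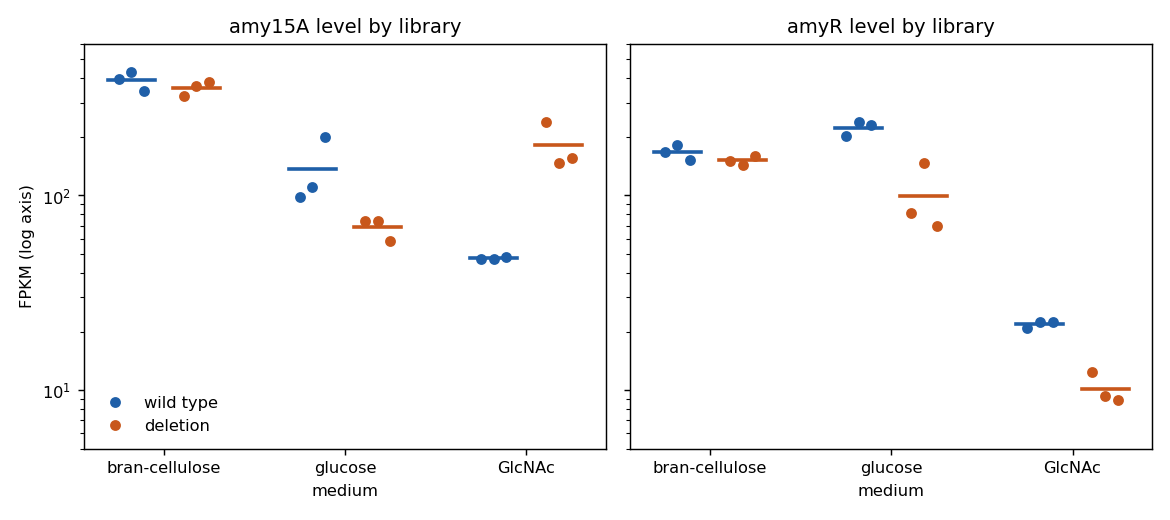
FPKM of amy15A (left) and amyR (right) in each of the 18 libraries, on a log axis, by medium, with the wild type in blue and the deletion in orange; bars are group means (n = 3). On GlcNAc the deletion libraries lie above the wild type for amy15A (147.7 to 238.8 against 47.0 to 48.3) and below it for amyR (8.93 to 12.3 against 20.9 to 22.4).

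Differences were tested with limma on log2(FPKM + 1) over the 8390 genes that reached 1 FPKM in 3 or more libraries, with Benjamini-Hochberg adjustment. A gene was called, and is said to have risen or fallen, at an adjusted p under 0.05 and an absolute log2 difference of at least 1. Log2 differences, their SE and their 95% intervals are on that scale, which understates the change of low genes.

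With nag3 deleted, neither gene was called on bran-cellulose, both were lower on glucose, and on GlcNAc they went opposite ways. On bran-cellulose, where 0.393% of genes were called, the log2 difference of amy15A was -0.12 (95% interval -0.60 to 0.35, adjusted p = 1). That of amyR was -0.14 (interval -0.56 to 0.28, adjusted p = 1). Shifts within these intervals are compatible with the values of these 3 libraries a group.

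On glucose 11.0% of genes were called, and amyR fell (-1.23, SE 0.20, interval -1.66 to -0.81, adjusted p = 0.000231), 2.35-fold on the scale used. amy15A was below the wild type in all 3 deletion libraries and passed the adjusted p but not the fold threshold (-0.92, SE 0.22, interval -1.39 to -0.44, adjusted p = 0.00502). The adjusted p was passed, at any size of difference, by 35.2% of genes. In a fit of only these 6 libraries amy15A missed the adjusted p (0.085). The size of that difference turned on wild-type replicate 3: without it the log2 difference was -0.61 (adjusted p = 0.0178), and without replicate 1 or 2 of the same group it passed the fold threshold (-1.11 and -1.03).

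On GlcNAc, where 27.4% of genes were called, amy15A rose 3.66-fold in the deletion (1.87, SE 0.22, interval 1.39 to 2.35, adjusted p = 3.51e-06). amyR fell 2.06-fold (-1.04, SE 0.20, interval -1.47 to -0.62, adjusted p = 0.000306). The fall of amyR lies at the fold threshold and lost its call without deletion replicate 2 (-0.99) or 3 (-0.96) and with array weights (-0.84), with an adjusted p of 0.00189 or less in each. Of 3 other regulator genes fixed as a list (clrB and xlnR, activators of cellulase and xylanase genes, and creA, the carbon catabolite repressor), 2 rose and 0 fell in this comparison, and their median log2 difference was 1.01 against 0.20 over all genes. The 2 were clrB (1.23) and, only just past the fold threshold, creA (1.01). For the deletion against the wild type, 0 of the 3 rose and 0 fell on glucose (11.0% of genes called) and on bran-cellulose (0.393%).

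Media differed within each genotype as well. From glucose to bran-cellulose in the wild type, a comparison that called 18.7% of genes, amy15A rose 2.98-fold (1.57, SE 0.22, adjusted p = 3.62e-05). Its regulator was somewhat lower and was not called (-0.41, interval -0.84 to 0.01, adjusted p = 0.0934). The amyR libraries did not overlap (153.0 to 181.6 FPKM on bran-cellulose, 201.8 to 237.4 on glucose). With only these 2 groups fitted, amyR passed the adjusted p (0.0181) but not the fold threshold. With 1 library left out of the full fit, its adjusted p ran from 0.0065 to 0.216. In the deletion, with 24.2% of genes called, amy15A rose 5.16-fold (2.37, SE 0.22, adjusted p = 3.54e-07). amyR had a higher mean on bran-cellulose there, below the fold threshold (0.68, interval 0.25 to 1.10, adjusted p = 0.00866, a p that 57.8% of genes passed at any size), and its groups overlapped because of the high glucose library. With these 6 libraries fitted alone it missed the adjusted p (0.0863), as it did without deletion glucose replicate 3 (0.47, adjusted p = 0.0525).

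From glucose to GlcNAc in the wild type both fell, amid 26.0% of genes called. The fall of amyR (-3.29, SE 0.20, interval -3.71 to -2.86, adjusted p = 3.66e-09) was 9.77-fold and that of amy15A (-1.43, SE 0.22, interval -1.91 to -0.95, adjusted p = 5.36e-05) was 2.70-fold. In the deletion, with 30.6% of genes called, amyR fell as well (-3.10, SE 0.20, interval -3.52 to -2.68, adjusted p = 3.14e-09). amy15A instead rose 2.56-fold (1.36, SE 0.22, interval 0.88 to 1.83, adjusted p = 7.44e-05), to a level above every glucose library of that strain.

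Bran-cellulose set directly against GlcNAc gave higher levels of both genes. In the wild type, with 18.7% of genes called, the log2 difference was 3.004 for amy15A (interval 2.53 to 3.48) and 2.88 for amyR (interval 2.45 to 3.30). In the deletion, with 20.1% of genes called, amyR rose by 3.78 (interval 3.36 to 4.20) and amy15A by 1.01 (interval 0.53 to 1.49, adjusted p = 0.0014). The amy15A call in the deletion was lost without bran-cellulose replicate 2 (0.99) or 3 (0.96), without GlcNAc replicate 2 (0.88) or 3 (0.92), and with array weights (0.65). These comparisons share libraries with those against glucose and are not independent of them.

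**Figure D2:**
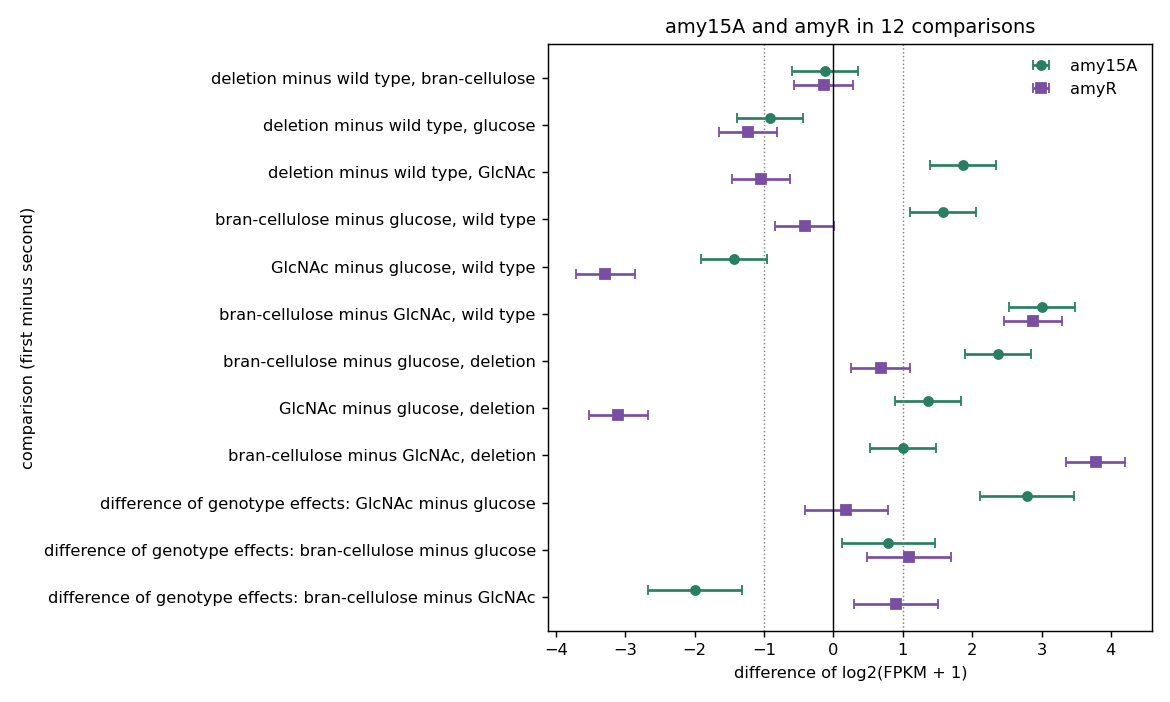
Differences of log2(FPKM + 1) for amy15A (green circles) and amyR (purple squares) in 12 comparisons, with 95% intervals from limma; dotted lines mark the fold threshold of 1. The 2 genes lie on opposite sides of 0 for the deletion against the wild type on GlcNAc (amy15A at 1.87, amyR at -1.04) and for GlcNAc against glucose in the deletion (1.36 and -3.10). They also do so for the difference of genotype effects between bran-cellulose and GlcNAc (-1.99 and 0.90). The same holds for bran-cellulose against glucose in the wild type (1.57 and -0.41), where the amyR interval includes 0.

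The effect of the deletion was itself compared between media by an interaction term. Between GlcNAc and glucose, where 26.3% of genes were called, the effect on amy15A differed by a log2 of 2.79 (SE 0.32, interval 2.11 to 3.46, adjusted p = 4.72e-06), from a negative to a positive difference. For amyR the same term was 0.19 (interval -0.41 to 0.79, adjusted p = 0.605), so no change of its response between these 2 sugars was detected, though the interval allows one of up to 0.79. The term depended on the libraries: it passed the adjusted p, below the fold threshold, without deletion glucose replicate 2 (0.50, adjusted p = 0.0236) and with array weights (0.65, adjusted p = 0.0173), and it was -0.025 without replicate 3 of that group.

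Between bran-cellulose and glucose, where 9.55% of genes were called, the amyR term was 1.09 (SE 0.28, adjusted p = 0.0134): amyR fell in the deletion on glucose and was near the wild type on bran-cellulose. That call rested on single libraries, since it was at 0.99 without deletion glucose replicate 1 and at 0.88 without replicate 3. The amy15A term was 0.79 (interval 0.12 to 1.47, adjusted p = 0.0911). Between bran-cellulose and GlcNAc, with 25.1% of genes called, the amy15A term was -1.99 (SE 0.32, adjusted p = 0.000111) and the amyR term 0.90 (SE 0.28, adjusted p = 0.015), which passed the adjusted p, as did 50.1% of genes, but not the fold threshold.

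The 6 group levels were then put in order, with every pair of groups tested in the same way. For amy15A the order from high to low was wild type on bran-cellulose, deletion on bran-cellulose, deletion on GlcNAc, wild type on glucose, deletion on glucose and wild type on GlcNAc. Of its 5 neighbouring pairs only deletion on bran-cellulose against deletion on GlcNAc was called. Deletion on GlcNAc differed from wild type on glucose by 0.44 (adjusted p = 0.0958, with 27.3% of genes called) and the libraries overlapped. Deletion on glucose differed from wild type on GlcNAc by 0.51 (adjusted p = 0.0531, with 33.9% of genes called), with no overlap.

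For amyR the order was wild type on glucose, wild type on bran-cellulose, deletion on bran-cellulose, deletion on glucose, wild type on GlcNAc and deletion on GlcNAc. The first 3 steps were not called, and the steps into the GlcNAc groups were: 2.06 between deletion on glucose and wild type on GlcNAc (adjusted p = 2.54e-07), then the fall on GlcNAc given above. Thus the group with the lowest amyR of all, the deletion on GlcNAc, had the third highest amy15A, and the group with the highest amyR, the wild type on glucose, had the fourth.

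**Figure D3:**
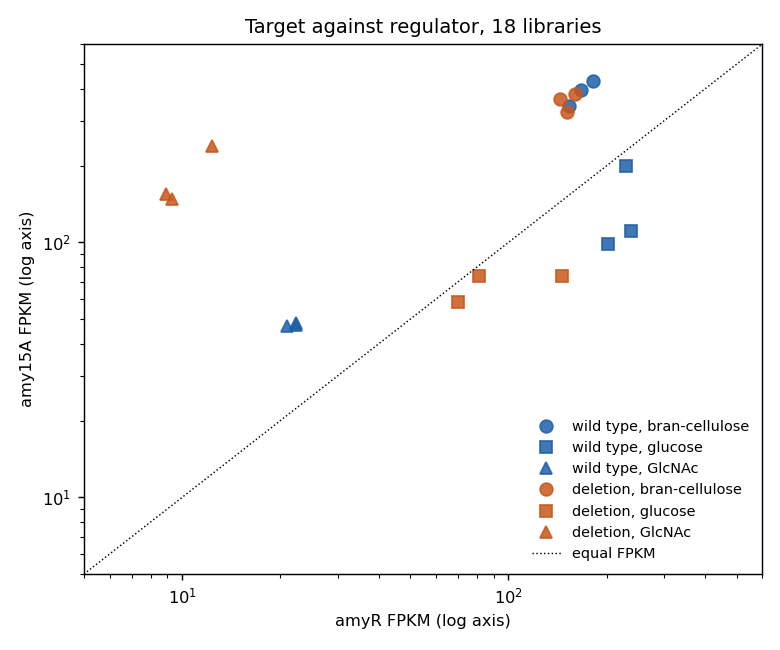
amy15A against amyR FPKM in the 18 libraries, both axes logarithmic; symbols give the medium, colours the genotype, and the dotted line equal FPKM. Glucose libraries lie below the line, all others above it, and the 3 deletion GlcNAc libraries stand alone at the upper left with amyR at 8.93 to 12.3 FPKM.

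Whether target and regulator moved together was described over the 6 group means of log2(FPKM + 1). Pearson's r was 0.40 and Spearman's rho 0.37, and r was -0.02 with the 2 groups farthest from the median of amy15A left out; these are descriptions of 6 conditions with shared genotypes and media. The deviations of the 18 libraries from their own group means gave r = 0.46. Within a strain, r over the 3 media was 0.79 in the wild type and 0.08 in the deletion, each from 3 means only. In the order of likeness to amy15A, amyR came 2028th of 7177 genes. The 3 listed regulators came before it, clrB 436th, xlnR 441st and creA 802nd.

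The ratio of amy15A to amyR in each library shows where the pair parted. Since FPKM is divided by gene length and the library protocol counts tags, the absolute ratio depends on that division, but its differences between libraries do not. On bran-cellulose amy15A was at 2.25 to 2.37 times the amyR level in the wild type and at 2.14 to 2.55 times in the deletion. In the wild type on GlcNAc, where both transcripts were several-fold lower, the ratio was 2.11 to 2.25.

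On glucose the ratio dropped below 1 in all 6 libraries, to 0.467, 0.488 and 0.872 in the wild type and to 0.504, 0.834 and 0.909 in the deletion. In the deletion on GlcNAc it reached 15.9, 17.4 and 19.4. The last group stands far from all the others, and the glucose libraries of both genotypes overlap.

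The log2 ratio, taken as log2((amy15A + 1)/(amyR + 1)), was compared by two-sided exact permutation tests with the other factor held as a stratum, in 7 tests adjusted together by Benjamini-Hochberg. Bran-cellulose exceeded glucose by 1.84 (exact p = 0.005, adjusted p = 0.0175), the smallest p that 400 arrangements allow. All 6 bran-cellulose libraries lay above all 6 glucose libraries. GlcNAc exceeded glucose by 3.16 (exact p = 0.005, adjusted p = 0.0175), again in 6 of 6 libraries. Bran-cellulose against GlcNAc gave -1.32 and missed the threshold (exact p = 0.1, adjusted p = 0.117). That mean covers unlike differences: 1.21 on bran-cellulose against 1.09 on GlcNAc in the wild type, and 1.23 against 4.0 in the deletion. A difference carried by 1 genotype keeps the exact p near 0.1, the lowest that 3 libraries against 3 allow. The test therefore cannot decide whether the ratio differed between these media.

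Averaged over media, the ratio was higher in the deletion than in the wild type by 1.08 (exact p = 0.018, adjusted p = 0.042, from 8000 arrangements), a mean that covers a difference of about 0 on bran-cellulose (1.23 ± 0.126 against 1.21 ± 0.0433, SD, n = 3) and a large one on GlcNAc (4.0 ± 0.158 against 1.09 ± 0.0436, SD, n = 3). That call was lost without any 1 of 6 libraries (1.03 to 1.07, adjusted p up to 0.07): wild-type bran-cellulose replicate 3, wild-type glucose replicates 1 and 2, deletion bran-cellulose replicate 2 and deletion glucose replicates 1 and 3. The estimates stayed close to 1.08, and leaving out a library also leaves fewer arrangements. How much of the loss came from the coarser test was not tested. The tests of whether the genotype difference in ratio differed between media gave 2.60 for GlcNAc against glucose (exact p = 0.085, adjusted p = 0.117), -0.30 for bran-cellulose against glucose (exact p = 0.475, adjusted p = 0.475) and -2.90 for bran-cellulose against GlcNAc (exact p = 0.065, adjusted p = 0.114), none past the threshold. On GlcNAc alone, 3 libraries against 3 cannot give an exact p below 0.1. A genotype difference carried by 1 medium keeps the exact p of a test between 2 media near that value. The tests that include GlcNAc therefore cannot decide whether the genotype difference in ratio differed between media. In all 3 of these tests genotype labels were permuted within each medium. That takes as its null no genotype difference in either medium, rather than an equal one, so these exact p-values do not measure the interaction alone.

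**Figure D4:**
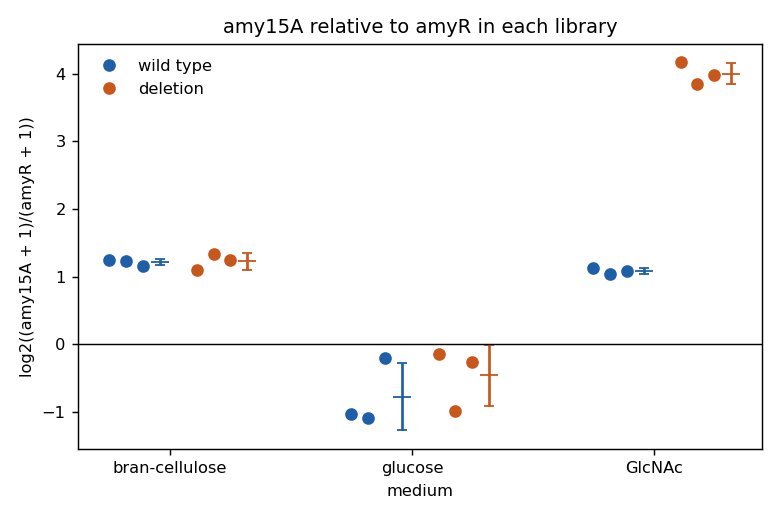
log2((amy15A + 1)/(amyR + 1)) in each library by medium, with the wild type in blue and the deletion in orange; the bar beside each group is its mean ± SD (n = 3). Glucose libraries lie below 0, both bran-cellulose groups and the wild type on GlcNAc lie between 1.05 and 1.34, and the deletion on GlcNAc lies between 3.85 and 4.17.

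Genes with a profile like that of either member were sought by Pearson's r over the 18 libraries, among 7177 other genes whose highest group mean was at least 10 FPKM. Nothing pairs these tags with names, and the 18 points share 6 groups, so the values are descriptions. PDE_08433 was most like amy15A (r = 0.963): on GlcNAc it was at 46.4 ± 2.28 FPKM in the deletion against 18.6 ± 1.66 in the wild type (SD, n = 3), and on bran-cellulose at 79.9 ± 3.31 against 73.0 ± 4.92. PDE_04265 came next (r = 0.959), with a wider range, from 4.50 ± 1.33 FPKM in the wild type on GlcNAc to 231.6 ± 30.6 in the deletion on bran-cellulose. The choice of these tags was unstable: both remained the leading pair in 6 of 18 fits with 1 library left out, and neither did by the root mean square distance.

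For amyR the leading genes were the abundant PDE_09377 (r = 0.979) and PDE_04812 (r = 0.977), and both remained so without any 1 of the 18 libraries. PDE_09377 stood at 6264 ± 1012 FPKM in the wild type on glucose, at 465.3 ± 15.04 on GlcNAc, and at 191.8 ± 29.6 in the deletion on GlcNAc (SD, n = 3). PDE_04812 went from 94.5 ± 24.9 FPKM in the wild type on glucose to 2.26 ± 0.467 on GlcNAc and was listed at 0 in all 3 deletion libraries on GlcNAc. With a pseudocount of 0.1 PDE_08287 took the place of PDE_04812, and by the root mean square distance, which weighs amplitude, other genes led.

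Of the 2 tags on each side of amyR by number, 3 were tested and PDE_03965 was not analysed here. PDE_03966 had a profile close to that of amyR (r = 0.919, 47th of 7177), and also shared its library-to-library deviations (r = 0.84 over 18 deviations from group means). This trait was not particular to it: the r of deviations with amyR was 0.79 for xlnR and 0.70 for PDE_09377. It was lower for clrB (0.38), PDE_04812 (0.09) and creA (-0.15). On glucose PDE_03966 fell in the deletion (-1.46, adjusted p = 0.000176), from 328.5, 300.2 and 300.5 FPKM to 92.3, 178.8 and 84.8 FPKM, and the high deletion library is the one that is high for amyR. On GlcNAc, where amyR fell, it was not called (0.35, interval -0.14 to 0.84, adjusted p = 0.192), at 44.0 ± 8.24 against 34.3 ± 5.94 FPKM (SD, n = 3); the difference between the 2 genes was not tested.

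**Figure D5:**
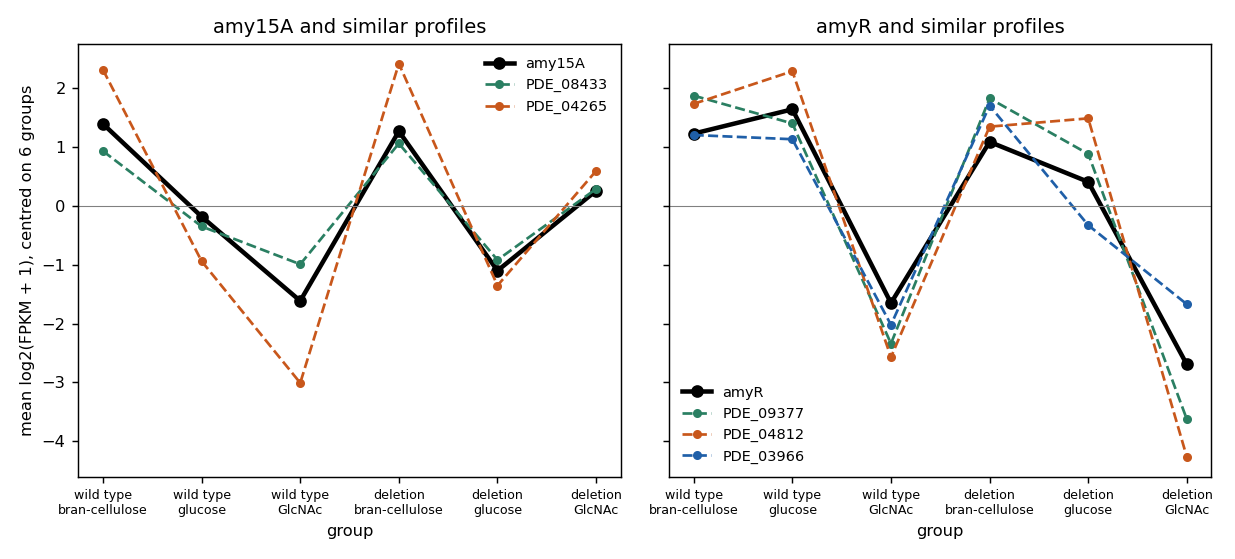
Mean log2(FPKM + 1) per group, centred on the 6 groups, for amy15A with the 2 genes most like it (left) and amyR with the 2 genes most like it and its neighbour by tag number, PDE_03966 (right); lines join groups only to guide the eye. The 3 left profiles have their lowest point in the wild type on GlcNAc, and the right profiles lie below their own mean in both GlcNAc groups.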

How the data were processed

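RNA of 18 libraries was profiled, and the authors deposited 1 table of FPKM values with 2 decimals, per the file headers, for 9261 identifiers. The labels' protocol describes oligo(dT) tag libraries cut with NlaIII and MmeI, while the header names a unit divided by length. For the aligner, the counting tool and the genome build, nothing is given in the sources used here. Each column was matched to its sample by title. Low values common to 2 libraries showed no step of 1 read (at most 7.21% of them at any 1 ratio), so depth in reads could not be set and count tests were left out. No sequences of this strain were at hand, and 0 identifiers matched the reference gene table.

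FPKM values were used as deposited, on log2(FPKM + 1), with the filter given above (8390 genes). limma 3.58.1 in R 4.3.3 was run with 1 mean per group over 18 libraries and an intensity trend, two-sided. Ratio tests and likeness used Python 3.11.15. The procedures were tested on simulated data. Alternatives were a pseudocount of 0.1, no filter, median-ratio and quantile scaling, only the groups compared, array weights, no trend, a replicate block, no fold threshold, percentile ranks and leaving out each library. Same-numbered replicates did not deviate together (r from -0.17 to 0.29, over 0.1 in 6 of 45 pairs), so numbers were not taken as pairs. Named genes were amy15A, amyR, the list of regulators, the 2 genes most like each member, and tags flanking them by number. A list of 7 hydrolase genes was tested too: on GlcNAc 2 rose and 0 fell in the deletion (27.4% of all genes called), on glucose 1 rose and 0 fell (11.0%), and on bran-cellulose 0 rose and 1 fell (0.393%), counts that on both sugars lie near the share over all genes. Members and lists were chosen with earlier results of these data known.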

Additional observations from a re-analysis of the deposited data

Results flagged for a closer look

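The effect of the nag3 deletion on amy15A differed between GlcNAc and glucose by a log2 of 2.79 (limma interaction, adjusted p = 4.72e-06), higher than the wild type in 3 of 3 deletion libraries on GlcNAc and lower in 3 of 3 on glucose. Between bran-cellulose and GlcNAc it differed by -1.99 (adjusted p = 0.000111). For amyR the effect differed between bran-cellulose and glucose by 1.09 (adjusted p = 0.0134), a call that ended without deletion glucose replicate 1 or 3. What lies behind these differences was not tested.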

How the results depend on the processing

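Of 24 limma results for the 2 genes, 17 kept direction and call under every alternative. The fall of amyR on GlcNAc in the deletion was lost with array weights (-0.84) and ran from -1.18 to -0.96 with 1 library left out. amy15A on glucose passed the threshold under median-ratio scaling (-1.01) and with no fold threshold (-0.92), with -1.11 to -0.61 when 1 library was left out. In the deletion, amy15A on bran-cellulose against GlcNAc was lost with array weights (0.65; 0.88 to 1.23 leaving 1 out), and amyR on bran-cellulose against glucose was called with no fold threshold (0.68). The amyR interaction of bran-cellulose against GlcNAc was called under median-ratio (1.12) and quantile scaling (1.05) and with no fold threshold (0.90; 0.82 to 1.04 leaving 1 out); that against glucose ran from 0.88 to 1.41. The amyR interaction of GlcNAc against glucose changed sign without deletion glucose replicate 3 (-0.025; up to 0.50). By percentile ranks, the amy15A to amyR difference passed for bran-cellulose against GlcNAc (-35.4 percentile points, adjusted p = 0.0117), missed for deletion against wild type (14.3, adjusted p = 0.07; log2 ratio 1.03 to 1.18 leaving 1 out), and changed sign for the bran-cellulose against glucose interaction (0.11, adjusted p = 0.995). The estimation of the array weights stopped before it had fully converged. The cause of these changes was not tested, except that no fold threshold is a looser rule. A replicate block changed none of the 24 calls (amy15A on GlcNAc 1.87, adjusted p = 1.77e-05). The deletion called 33, 927 and 2299 genes on the 3 media (bran-cellulose, glucose, GlcNAc), which became 60, 2951 and 5381 by the adjusted p alone, and the other 9 comparisons also grew over 1.5 times; array weights gave 66 on bran-cellulose. On GlcNAc the median difference of all genes went from 0.20 to -0.00325 under median-ratio scaling, with amy15A at 1.63 and amyR at -1.27. Depth in reads is unknown, so the precision of low values such as amyR on GlcNAc cannot be given beyond the replicate spread.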

Other observations

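Of the 2 tags on each side of amy15A by number, 3 passed the filter on low values. In the deletion 2 of these 3 were called on GlcNAc, where 27.4% of genes were called, and 1 of 3 on glucose, where 11.0% were; with so few tags the counts are given as a description. PDE_01200, next to amy15A by number, rose in the deletion on GlcNAc from 4.74, 8.27 and 4.16 FPKM to 104.4, 77.1 and 100.5 FPKM (log2 difference 3.86, SE 0.19, adjusted p = 2.68e-10 by limma). On glucose it was at 30.3 ± 3.02 in the deletion against 58.1 ± 4.47 FPKM in the wild type (SD, n = 3; -0.92, adjusted p = 0.00139), below the fold threshold. It thus had the same signs of the genotype difference as amy15A on both sugars, but on bran-cellulose, where amy15A was highest, it stood at 13.2 ± 1.99 FPKM in the wild type and 19.8 ± 1.40 in the deletion (SD, n = 3). Over the 18 libraries its r with amy15A was 0.18. PDE_01199 rose in the deletion on glucose, from a mean of 39.0 to 271.9 FPKM (2.79, adjusted p = 1.49e-06), and on GlcNAc, from 8.58 to 18.6 FPKM (1.14, adjusted p = 0.00146). What these tags encode is not annotated in the files used here.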
